A study of Mus musculus with 6 samples.

Results

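Tldc2, Oxr1, Ncoa7 and Tbc1d24 encode proteins that carry the TLDc domain, and their transcripts were followed in kidneys of mice given metformin or saline. The members were chosen by gene symbol: a transcript cluster, which is the array's unit of measurement, counted when the platform annotation gave it that 1 symbol alone. Of the 4 genes named, 3 had such a cluster, 1 each, among 22087 genes tested, and all 3 lay above the filter on low clusters. The only listed cluster of Tbc1d24 also carries the symbol of Ntn3, so no value is given for Tbc1d24. Tldc2 was picked because it fell under metformin in these same arrays. Its difference between the groups is therefore a description without a test, while Oxr1 and Ncoa7 were added by family name. Meak7, formerly Tldc1, is the remaining mouse gene of the family and was measured for context.

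All 6 arrays came from female Pkd1 miR transgenic mice, a model of polycystic kidney disease. The metformin group (3 mice) received the biguanide metformin at 150 mg per kg and day by intraperitoneal injection, and the saline group (3 mice) received saline injections. Both were treated from postnatal day 35 to postnatal day 63, the age at which kidneys were collected, and each array profiled total RNA of 1 whole kidney sample labelled as a biological replicate. Both groups carry the transgene, no group of mice without it was measured, and the labels do not name the promoter that drives it. In whole tissue, fewer cells of a type and less RNA per cell cannot be told apart.

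The TLDc domain is a globular fold found from yeast to mammals, and its founding member Oxr1 was named for the oxidation resistance it confers. Several proteins with this domain bind the vacuolar proton pump (V-ATPase), a rotary enzyme of a cytosolic V1 sector and a membrane V0 sector that acidifies endosomes and lysosomes. In kidney intercalated cells the same pump sits in the plasma membrane and secretes acid, and mice lacking Ncoa7 develop incomplete distal renal tubular acidosis. Tldc2 encodes a small protein made up of little more than the domain. Tbc1d24 joins it to a TBC domain, the fold of Rab GTPase-activating proteins, and Meak7 is a lysosome-associated protein linked to mTOR signalling.

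Of the measured members, Tldc2 and Ncoa7 are in the RefSeq promoter table. Their listed start regions are shown because Tldc2 is the gene with the wide difference and Ncoa7 has a further start downstream, called internal here. Each window covers 250 bases before and 50 bases from the annotated start, in build GRCm38.p6. The Ncoa7 windows stand at chr10:30803277-30803576 and chr10:30655818-30656117, both on the minus strand, and the Tldc2 window at chr2:157086760-157087059 on the plus strand. All 3 windows lie inside the annotated gene spans, chr2:157076627-157096948 for Tldc2 and chr10:30645582-30807700 for Ncoa7. The outermost starts of these spans are thus not covered, and the Tldc2 window is internal to its gene. Capitals mark matches to 3 motifs searched on both strands, and they did not overlap one another in these windows. The motifs were the interferon-stimulated response element (GAAA, any 2 bases, GAAA), TGACNNNGC (antioxidant response element) and CACGTG (the E-box core of lysosomal genes).

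Tldc2 start: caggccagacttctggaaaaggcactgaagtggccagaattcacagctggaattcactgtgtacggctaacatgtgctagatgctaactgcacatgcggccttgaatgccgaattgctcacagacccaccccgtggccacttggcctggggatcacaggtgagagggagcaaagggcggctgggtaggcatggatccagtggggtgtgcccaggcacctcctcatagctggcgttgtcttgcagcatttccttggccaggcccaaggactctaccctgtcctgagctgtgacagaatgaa

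Ncoa7 upstream start: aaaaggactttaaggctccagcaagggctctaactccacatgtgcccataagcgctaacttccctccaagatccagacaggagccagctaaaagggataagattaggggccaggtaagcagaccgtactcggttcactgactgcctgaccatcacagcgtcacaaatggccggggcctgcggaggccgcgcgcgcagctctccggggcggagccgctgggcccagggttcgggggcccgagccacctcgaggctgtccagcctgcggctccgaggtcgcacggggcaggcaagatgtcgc

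Ncoa7 internal start: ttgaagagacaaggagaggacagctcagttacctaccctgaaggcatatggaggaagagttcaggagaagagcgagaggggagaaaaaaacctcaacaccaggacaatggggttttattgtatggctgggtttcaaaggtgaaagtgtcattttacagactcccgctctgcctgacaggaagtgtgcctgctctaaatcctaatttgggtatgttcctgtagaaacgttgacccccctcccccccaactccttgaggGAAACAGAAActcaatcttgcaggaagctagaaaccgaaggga

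The Tldc2 window held none of the 3 motifs as spelled, and neither did the upstream Ncoa7 window. The internal Ncoa7 window held 1 interferon-stimulated response element on its own strand, with its first base at position 8 counted from the annotated start as 1. That element was found in 3.44% of the 32851 windows of the table, TGACNNNGC in 12.4% and CACGTG in 7.15%. A short Ncoa7 product made from an internal start is known to be induced by interferon. The cluster measured here does not separate the starts.

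Tldc2 stood at 11.42, 11.45 and 11.41 log2 units in metformin replicates 1 to 3, against 13.79, 13.62 and 12.86 in saline replicates 1 to 3. The metformin arrays were nearly identical, the saline arrays were spread over 0.93 log2 units, and the lowest saline array lay 1.41 above the highest metformin array. Group means were 11.43 ± 0.02 in metformin kidneys and 13.42 ± 0.50 in saline kidneys (SD, n = 3 each), a difference of -2.0 ± 0.22 (SE of the limma fit), or 3.99-fold lower with metformin. Between samples of the same replicate number the difference was -2.37, -2.17 and -1.45. Saline replicate 3 held the value nearest to the metformin group. Without any single array the difference lay between -2.28 (without saline replicate 3) and -1.81 (without saline replicate 1). Of the 22087 genes, 14 had a lower value of the difference. This was the contrast that chose the gene.

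**Figure D1:**
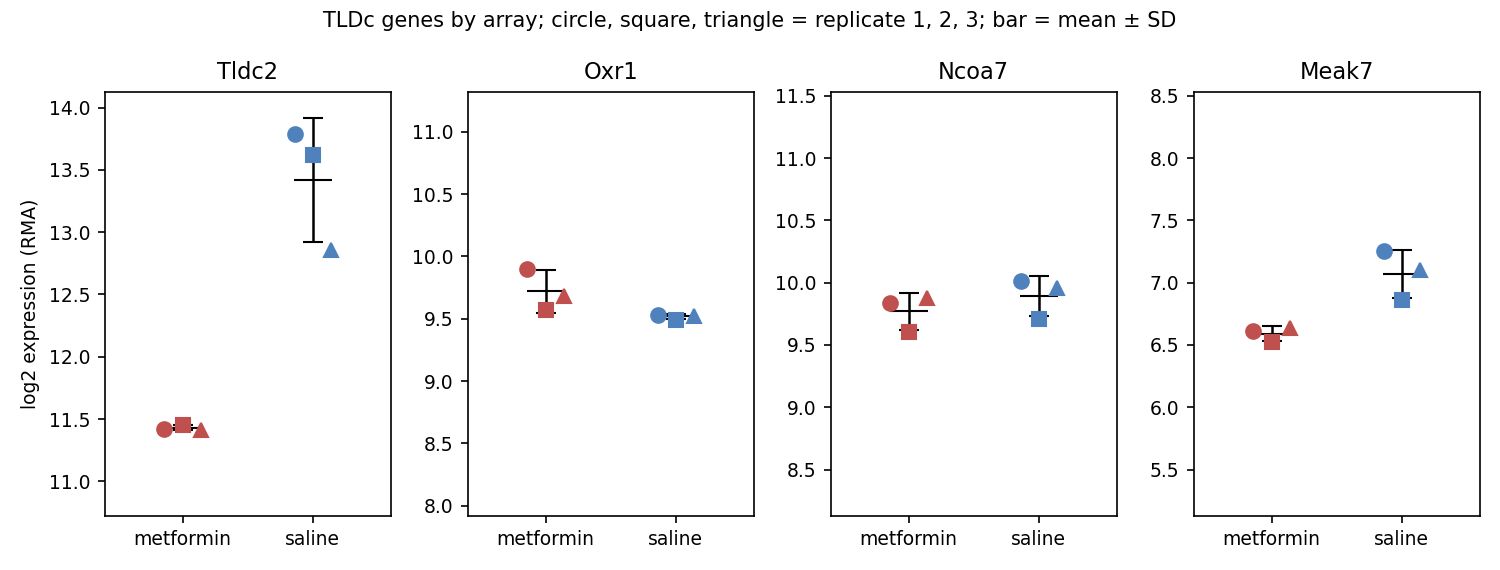
Log2 expression (vertical axis, each panel spanning the same number of log2 units) of Tldc2, Oxr1, Ncoa7 and Meak7 in metformin (left) and saline (right) kidneys; points are arrays and bars the mean ± SD of 3. Tldc2 is at 11.41 to 11.45 in metformin kidneys and at 12.86 to 13.79 in saline kidneys, while the Ncoa7 groups overlap.

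Oxr1, the oxidation resistance gene, read 9.90, 9.57 and 9.68 log2 units in metformin replicates 1 to 3, against 9.53, 9.49 and 9.52 in saline replicates 1 to 3. Here the spread was on the other side: the saline arrays lay within 0.04 of each other and the metformin arrays within 0.33. The lowest metformin array exceeded the highest saline array by 0.04 log2 units, so the groups did not overlap, by a margin far smaller than the spread among the metformin arrays. The difference was 0.20 ± 0.11 (SE), with a 95% interval of -0.05 to 0.45, and it did not pass (limma adjusted p = 0.251 over all genes tested).

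Ncoa7, which was named as a nuclear receptor coactivator, read 9.84, 9.60 and 9.88 log2 units in metformin replicates 1 to 3, against 10.01, 9.71 and 9.96 in saline replicates 1 to 3. Replicate 2 was the lowest array in both groups, and the groups overlapped. The difference was -0.12 ± 0.12 (SE), with a 95% interval of -0.41 to 0.17 (limma adjusted p = 0.56). Same-numbered samples differed by -0.17, -0.11 and -0.08, metformin being lower each time by less than the range of either group.

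Of the 2 members tested, none passed limma's adjusted threshold of 0.05, and none had an unadjusted p under 0.05 (0.104 for Oxr1 and 0.368 for Ncoa7). Over all genes 15.8% passed, 9.08% lower and 6.71% higher with metformin. Of these 2, the groups did not overlap for Oxr1, by a gap of 0.04 log2 units. Non-overlap was the case in 37.3% of all genes (19.4% lower and 17.8% higher with metformin). The groups of Tldc2 did not overlap either, but it was chosen by this contrast and is not counted. Of the 3 measured members, only Tldc2, the gene chosen by this contrast, had a wide difference. Oxr1 and Ncoa7 had no difference past the threshold, and the arrangement of their arrays is a description.

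Meak7 read 6.61, 6.52 and 6.64 log2 units in metformin replicates 1 to 3, against 7.25, 6.86 and 7.10 in saline replicates 1 to 3. Like Tldc2 it had its metformin arrays closer together (a range of 0.12) than its saline arrays (0.38), and the groups were 0.22 apart. It fell by 0.48 ± 0.12 log2 units (SE), or 1.39-fold (limma adjusted p = 0.0366). This call rested on all but 1 of the arrays. It ended without metformin replicate 1 (adjusted p = 0.0934), metformin replicate 2 (0.108), metformin replicate 3 (0.0741), saline replicate 1 (0.115) or saline replicate 3 (0.0845). It stayed without saline replicate 2 (0.0175). Within saline the order of the arrays differed between the genes: replicate 3 was lowest for Tldc2, and replicate 2 for Ncoa7, Oxr1 and Meak7.

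The genes next to Tldc2 on chromosome 2 did not share its difference. Samhd1, the nucleotide triphosphohydrolase next to Tldc2, read 10.94, 10.72 and 10.73 log2 units in metformin replicates 1 to 3, against 10.29, 10.55 and 10.12 in saline replicates 1 to 3. It rose by 0.48 ± 0.13 (SE; limma adjusted p = 0.0491), and 5 of the 6 fits without 1 array ended that call (adjusted p up to 0.147), the exception being the one without saline replicate 2. It also ended after median-centring of the arrays (adjusted p = 0.0961), after quantile normalization (0.0503), with no filter on low clusters (0.0566), over all clusters (0.0524) and with the trend and robust options (0.0563). Soga1, whose annotated span overlaps that of Tldc2, read 6.83, 6.76 and 6.69 in metformin kidneys, against 6.31, 6.66 and 6.39 in saline kidneys, a difference of 0.31 ± 0.12 that did not pass (limma adjusted p = 0.115). Both neighbours thus had higher values in metformin kidneys, where Tldc2 was lower. Of the 6 other nearest genes, on either side of Oxr1, Ncoa7 and Meak7, none passed in limma, at differences between -0.25 and 0.12, and 1, Hey2 beside Ncoa7 (-0.22), had an unadjusted p under 0.05.

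Among 15108 genes compared (predicted genes and small RNAs left out), 17 had a Pearson r above 0.99 with Tldc2 over the 6 arrays and 1162 an r above 0.9. The arrays fall into the 2 treatment groups, so such an r mostly reflects the difference between them, and it is given as a description. The 5 most alike were the Wnt antagonist Sfrp1 (r = 0.9988), Lrrc61 (r = 0.9968), the sodium pump subunit Atp1b3 (r = 0.9963), the coatomer subunit Copz2 (r = 0.9951) and the tight junction protein Ildr1 (r = 0.995). Sfrp1 read 12.10, 12.13 and 12.17 log2 units in metformin replicates 1 to 3, against 14.32, 14.09 and 13.35 in saline replicates 1 to 3. Like Tldc2 it had a narrow metformin group and a low saline replicate 3. The differences were -1.79 for Sfrp1, -1.90 for Lrrc61, -0.86 for Atp1b3, -0.34 for Copz2 and -0.51 for Ildr1, so the likeness is in the shape and not always in the size.

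Markers of other cell types were read on the same arrays, and their part in the fall of Tldc2 was not tested. Their counts stand against 9.08% of all genes called lower and 6.71% called higher. The count over all genes moved with the settings as well. It was 3488 in the main fit, 4370 with a block for the replicate number, 4799 after quantile normalization and 842 without saline replicate 1. The mean log2 level of 14 proximal tubule markers was 13.65 to 14.44 in metformin kidneys and 14.56 to 15.10 in saline kidneys, with 3 called lower and all 14 differences below 0. The number called was 0 without metformin replicate 1 or 2 or saline replicate 1 or 3, 10 with a block for the replicate number and 11 after quantile normalization. The mean of 7 intercalated cell markers was 10.74 to 10.99 in metformin kidneys and 10.99 to 11.28 in saline kidneys. Called lower were 2, the anion exchangers Slc4a1 and Slc26a4, and 0 without metformin replicate 1 or 2 or saline replicate 1 or 3. Differences were below 0 for 5 of these markers and above 0 for 2, Foxi1 (0.18) and the anion exchanger Slc4a9 (0.05). Slc26a4 was not called with a block for the replicate number (adjusted p = 0.0665). The mean of 10 adipocyte markers was 5.68 to 5.85 in metformin kidneys and 6.21 to 7.97 in saline kidneys. The number called lower was 1, 8 without saline replicate 3, 4 with the block, 3 after quantile normalization and 0 without metformin replicate 1 or 2 or saline replicate 1. Ucp1 read 3.96, 3.74 and 3.91 in metformin kidneys, under the filter's cut of 4.03. It passed the filter only through its saline arrays (7.46, 10.29 and 4.68) and enters the list mean. Adipoq, the 1 called, read 4.05, 4.25 and 4.13 in metformin kidneys, close to that cut. The mean of 7 macrophage markers was 9.33 to 9.71 in metformin kidneys and 8.22 to 9.59 in saline kidneys, which overlapped, with 1 called higher, 5 without saline replicate 2 and 0 without any other single array. In saline replicate 3, the array with the lowest saline Tldc2, the adipocyte (6.21) and macrophage (8.22) means were the lowest of the group and the proximal tubule mean (15.10) the highest. Among the metformin arrays Tldc2 stayed within 0.04. There the proximal tubule mean ran from 13.65 to 14.44, the macrophage mean from 9.33 to 9.71, the intercalated cell mean from 10.74 to 10.99 and the adipocyte mean from 5.68 to 5.85.

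**Figure D2:**
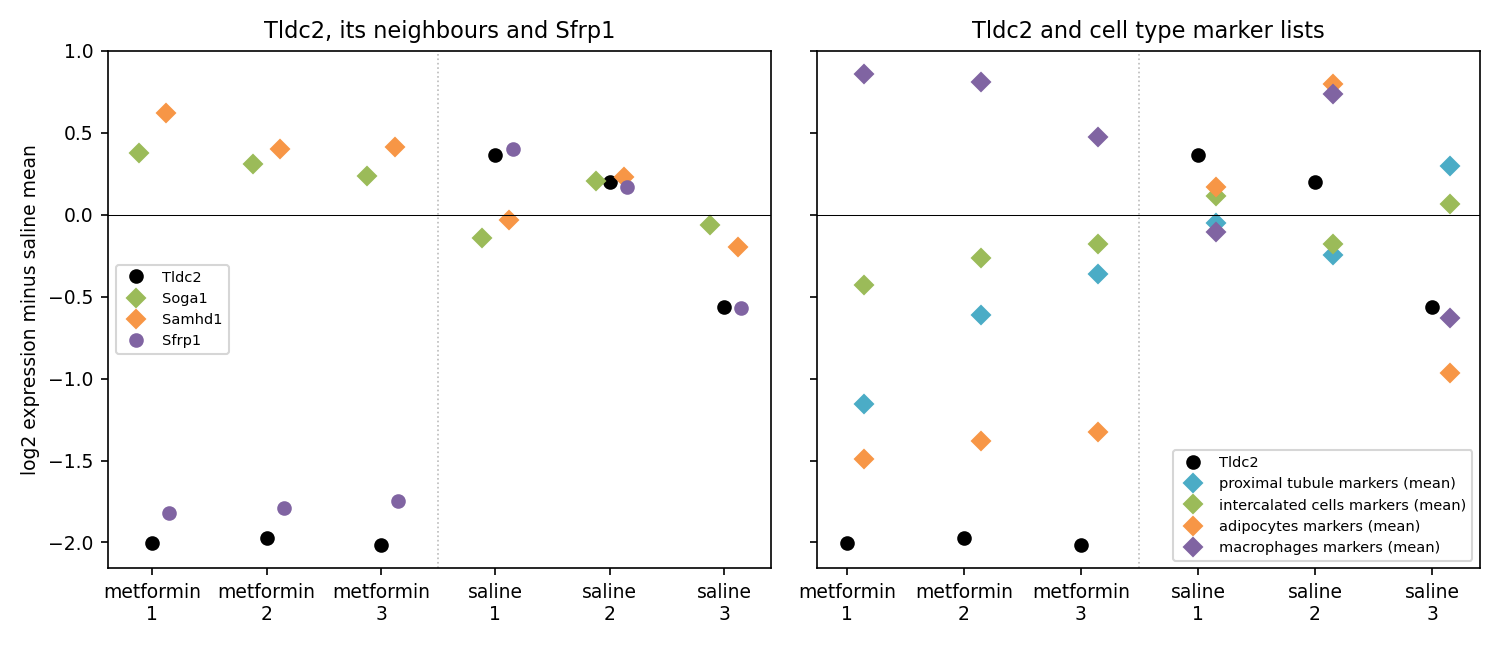
Log2 expression minus the mean of the saline arrays (vertical axis) for each array (horizontal axis, metformin left of saline); the left panel shows Tldc2, the neighbouring genes Soga1 and Samhd1, and Sfrp1, and the right panel Tldc2 with the mean of each marker list. Tldc2 and Sfrp1 nearly coincide, and the neighbours lie above their saline mean on the metformin arrays. Over the metformin arrays the proximal tubule markers spread more than the adipocyte markers or Tldc2.

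The V-ATPase is a known partner of TLDc proteins. Of its 24 subunits measured, 7 fell with metformin, none rose and 17 did not pass (29.2% called), against 9.08% of all genes lower. The difference was below 0 in 22 subunits, and the median difference was -0.43, against 0.02 for all genes. The number called was 2 without any 1 of metformin replicates 1, 2 and 3, saline replicate 1 and saline replicate 3, and without saline replicate 2 it was 8, 7 lower and 1 higher. Over all genes the count called was 3488 with all arrays, 842 to 1965 without any 1 of the former arrays and 3961 without saline replicate 2. Beside the subunits stand the markers given above: all 14 proximal tubule markers had differences below 0. Of 7 intercalated cell markers, Slc4a1 and Slc26a4 were called lower, 5 had differences below 0, and Foxi1 and Slc4a9 had differences above 0. The part of these markers in the subunit values was not tested. Atp6v0e2, a small membrane subunit, read 8.25, 8.47 and 8.62 log2 units in metformin replicates 1 to 3, against 9.81, 9.35 and 9.62 in saline replicates 1 to 3. It fell by 1.15 ± 0.15 (SE; limma adjusted p = 0.00735). Atp6v0d2, the d subunit form of intercalated cells and osteoclasts, read 12.90, 13.11 and 13.40 in metformin kidneys, against 14.17, 14.00 and 14.06 in saline kidneys, and fell by 0.94 ± 0.14 (limma adjusted p = 0.0097). The calls of these 2 genes held in each of the 6 fits without 1 array.

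In the V1 sector, to which TLDc proteins bind, 2 of 13 subunits were called, both lower (15.4%). Over all genes 9.08% were called lower and 15.8% in either direction. The difference was below 0 in 12 of the 13, with a median of -0.43. The ring subunit Atp6v1b2 fell by 0.72 and the stalk subunit Atp6v1e1 fell by 0.60. Atp6v1b1, the B subunit form of intercalated cells, read 13.12, 13.42 and 13.45 log2 units in metformin kidneys, against 13.95, 13.69 and 13.68 in saline kidneys, a difference of -0.44 (limma adjusted p = 0.0571). It was called after median-centring (0.0470), after quantile normalization (0.0385) and with array weights (0.0442). With the replicate block (0.0861), the trend and robust options (0.0724) or any 1 array left out (up to 0.174) it was not called. In the V0 sector and its accessory proteins 5 of 11 fell (45.5%). Besides the 2 above, the a subunit Atp6v0a2 fell by 0.55, the renin receptor Atp6ap2 fell by 0.54 and the d subunit Atp6v0d1 fell by 0.52. These 5 calls of both sectors were the ones that ended without single arrays. With a block for the replicate number, the calls of Atp6ap2 (adjusted p = 0.0527) and Atp6v0d1 (0.0560) ended. The trend and robust options ended those of Atp6ap2 (0.0506), Atp6v0a2 (0.0512) and Atp6v0d1 (0.0571). Having no filter on low clusters ended those of Atp6v0a2 (0.0518) and Atp6v0d1 (0.0551), and array weights that of Atp6v0a2 (0.0533). Tcirg1, the a subunit form of osteoclasts, had a difference of 0.46 (limma adjusted p = 0.0528) and was called higher with the replicate block (0.0274). It was not called after median-centring (0.123) or quantile normalization (0.16). Atp6v1g2, with 0.35, was the other of 2 subunits above 0 (limma adjusted p = 0.057). Among the 4 genes of the RAVE and rabconnectin complexes, which assemble the pump, none passed in limma, and 1, Rogdi with the lowest difference (-0.30, adjusted p = 0.127), had an unadjusted p under 0.05.

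**Figure D3:**
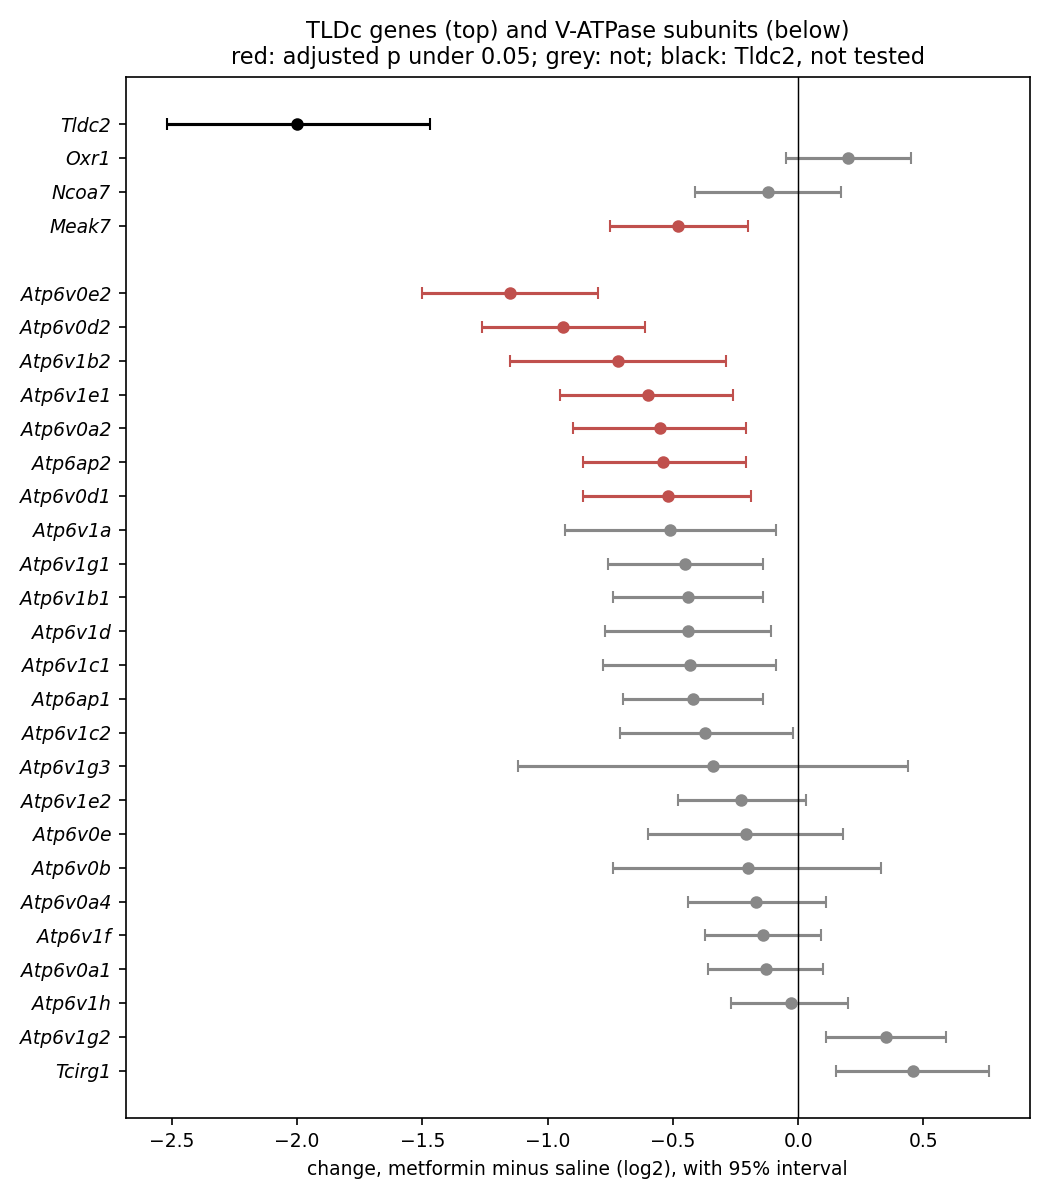
Difference in log2 expression, metformin minus saline, with its 95% interval (horizontal axis) for the TLDc genes (top rows) and 24 V-ATPase subunits in order of their difference. Tldc2 (black, not tested) lies at -2.0, below each subunit shown, and 22 of 24 subunits lie below 0.

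Enzymes against oxidants were looked at because Oxr1 is known for oxidation resistance. Of 19 measured, 8 fell and none rose, against 9.08% of all genes lower, with a median difference of -0.37. Beside them, all 14 proximal tubule markers had differences below 0, with a median of -0.77. The part of these markers in the enzyme values was not tested. The quinone reductase Nqo1 fell by 1.26, glutathione peroxidase Gpx1 fell by 0.98, mitochondrial peroxiredoxin Prdx3 fell by 0.98, catalase Cat fell by 0.92, and extracellular Sod3 fell by 0.70. Differences were -0.41 for Prdx2, -0.53 for Sod1 and -0.33 for the thioredoxin Txn1, each past the threshold. Txn1 was not called in any of the 6 fits without 1 array, over all clusters (adjusted p = 0.0600) or with the trend and robust options (0.0718). Sod1 was called in 1 and Prdx2 in 2 of the 6 fits without 1 array, Sod3 in 3 and Prdx3 in 5. Hmox1, heme oxygenase, had a difference of 0.24 (limma adjusted p = 0.274) and was the 1 enzyme above 0. The count was 4 without metformin replicate 1 or 3, 3 without saline replicate 1 and 5 without saline replicate 3, and Nqo1, Gpx1 and Cat were called in each of the 6 fits without 1 array. Without those same arrays, 490 to 1187 of all genes were called lower, against 2006 with all arrays. Oxr1, with 0.20, lay at the upper end of the range of these enzymes' differences.

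Relatives of the other members were counted in the same way. In the TBC1D family, from which Tbc1d24 takes its name, 3 of 26 fell and none rose (11.5%, with 9.08% of all genes lower). Tbc1d7, a subunit of the TSC complex, fell by 0.61, the Rab GTPase-activating protein Tbc1d10a fell by 0.50, and Tbc1d19 fell by 0.45. Among the nuclear receptor coactivators Ncoa1 to Ncoa6 the ferritin receptor Ncoa4 fell by 0.75 and Ncoa6 rose by 0.63. The 4 others did not pass (2 of 6 called, 33.3%, with 15.8% called over all genes). Of 10 interferon-stimulated genes, listed because of the interferon-induced form of Ncoa7, only Rsad2 was called, lower by 1.04 log2 units, and Mx1 had the highest difference, 0.40 (limma adjusted p = 0.104). Without saline replicate 1 the calls of Tbc1d7, Tbc1d10a, Tbc1d19, Ncoa4, Ncoa6 and Rsad2 all ended (adjusted p up to 0.0805). Ncoa4 also lost its call without saline replicate 3, Tbc1d10a without each metformin replicate, and Tbc1d19 without each array but saline replicate 2.

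**Figure D4:**
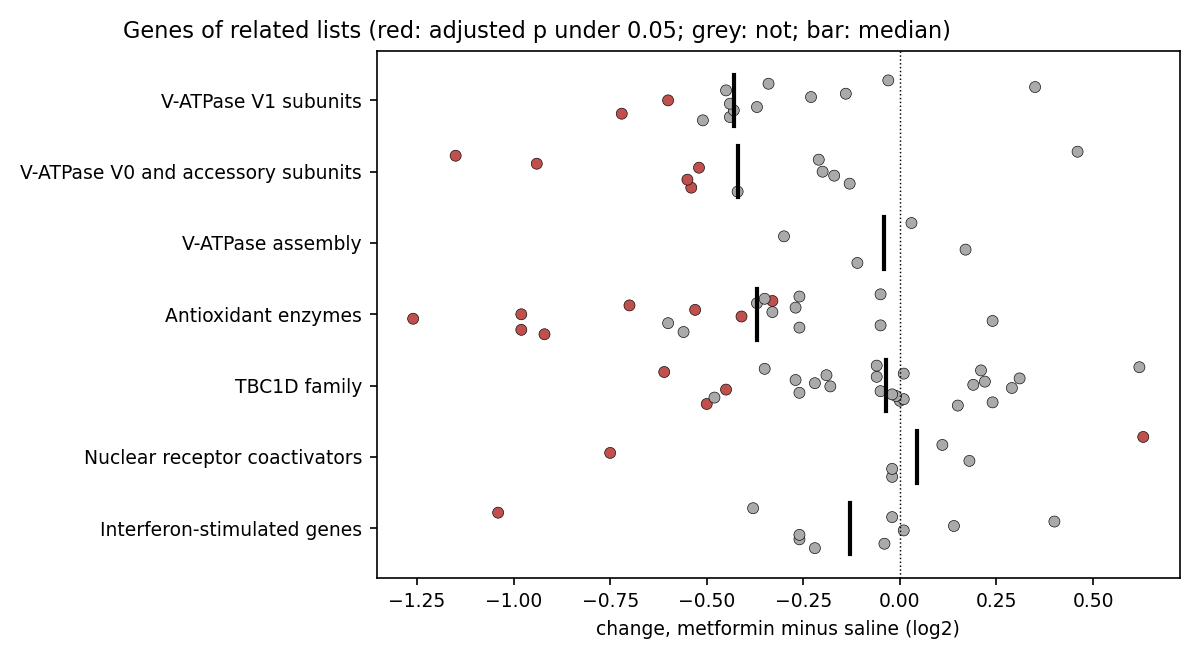
Difference in log2 expression, metformin minus saline (horizontal axis), for each measured gene of 7 lists (rows); red points passed an adjusted p of 0.05, grey points did not, and the bar is the list's median. The V-ATPase V1, V0 and antioxidant lists have medians of -0.43, -0.42 and -0.37, while the TBC1D list is centred at -0.04.

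The array medians lay between 4.67 and 4.86 log2 units. The upper quartiles were 7.21 to 7.34 on the metformin arrays and 7.01 to 7.12 on the saline arrays, without overlap. Of the 3488 genes called, 1482 were higher and 2006 lower with metformin. After median-centring the split was 913 higher and 2713 lower, and after quantile normalization 993 higher and 3806 lower. Over all 43971 clusters, named or not, it leaned the other way, with 5553 higher, 2221 lower and a median difference of 0.094. The median difference of all genes was -0.099 after quantile normalization and -0.072 after median-centring, against 0.019 as deposited. After median-centring the difference was -2.09 for Tldc2, -0.57 for Meak7, 0.11 for Oxr1 and -0.21 for Ncoa7. After quantile normalization it was -2.02 for Tldc2, -0.69 for Meak7, 0.10 for Oxr1 and -0.19 for Ncoa7.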

How the data were processed

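Kidneys were snap-frozen, their RNA was taken up in TRIzol, and a GeneChip WT PLUS kit was used for labelling, per the labels' protocols. The authors deposited log2 values, 1 for each transcript cluster on each array. Per the submitters' processing notes, RMA and Transcriptome Analysis Console 4.0 were used. The labels do not state the form of RMA or the probe definition. Values ran from 1.94 to 19.9, and the number of arrays limits the precision.

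Of 65956 clusters, 30604 carry 1 platform gene symbol, updated through the Entrez number where RefSeq (GRCm38.p6) held it. The cluster of Tldc2 lists that symbol 2 times and was taken as 1. The 33.3% of clusters with the lowest mean (at or under 4.03) were left out, and the highest-mean cluster per gene was kept. The 22087 genes were fitted with limma 3.58.1 in R 4.3.3 (lmFit, eBayes, two-sided, Benjamini-Hochberg over all genes). The script was tested on simulated data. No p-value is given for Tldc2 or for the genes named for their likeness to it.

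Members and lists were chosen with earlier results of these data known. Genes named were the members and Meak7; from each list those past the threshold and the 4 with the smallest p, of which a part is printed; the 5 most correlated with Tldc2; and nearest neighbours. Deviations of same-numbered samples from their group means correlated across genes at 0.118, 0.145 and 0.541, each over the limit used for pairing, so the replicate number was an alternative block. Metformin replicate 1 correlated more with saline replicate 2 (0.299). The labels do not say what the numbers stand for.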

Additional observations from a re-analysis of the deposited data

How the results depend on the processing

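The difference of Tldc2 lay between -2.28 and -1.81 in the alternatives run (replicate block, array weights, 2 scalings, 2 filters, a gene's clusters averaged, unnamed clusters added, eBayes with trend and robust options, and each array left out), and it was -2.0 with the replicate block. Oxr1 and Ncoa7 did not pass in any of them. Meak7 passed in each except 5 of the 6 fits that left out an array (changes over the 6 of -0.58 to -0.39, adjusted p up to 0.115). The count of genes called was 842 to 3961 without 1 array and 4370 with the replicate block. It was 3626 after median-centring, 4799 after quantile normalization and 3190 with the trend and robust options, against 3488 in the main fit. The count of V-ATPase subunits called was 2 to 8 without 1 array, 11 after median-centring, 13 after quantile normalization, 4 with the trend and robust options and 9 with the replicate block. Antioxidant enzymes called lower were 12 after median-centring and 13 after quantile normalization. Over all genes, 2713 were called lower after median-centring and 3806 after quantile normalization, against 2006 in the main fit. Apart from Atp6ap2, Atp6v0d1, Tcirg1 and Slc26a4, the block changed no call among the named genes that were followed singly over the settings. Adipoq, Ucp1, Foxi1, Slc4a9 and Hey2 were not among these. The alternatives for Tbc1d24 could not be run, since it has no cluster of its own. The causes of these shifts were not tested. With 3 arrays a group, differences as small as that of Ncoa7 lie within the intervals.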
